A study of Arabidopsis thaliana with 4 samples.

Results

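The 42 nuclear genes described here encode the light-harvesting antenna, the photosystem subunits and the carbon fixation enzymes of the chloroplast, measured in roots of the Arabidopsis thaliana wild type Col-0. They were listed by identifier, from 27655 genes of the deposited table, by the kind of protein they encode, with earlier results of these data known: 13 LHCB and 4 LHCA antenna genes, 10 photosystem I (PSA) and 5 photosystem II (PSB) genes, and 10 carbon fixation genes (4 RBCS genes, GAPA, GAPB, CA1, RCA, PRK and SBPASE). The study compared seedlings kept for 8 days in Murashige and Skoog medium with 625 µM phosphate (plus_Pi, 2 libraries) or with 5 µM phosphate (low_Pi, 2 libraries), as part of work on cis-zeatin in phosphate-starved roots. Both groups are the same ecotype, and the labels name no allele or agent beyond the phosphate level. The table's own name describes the roots as dark grown, while the labels give no light regime. The labels do not say how many plants went into a library or whether libraries of a group are separate cultures.

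Antenna and photosystem proteins are translated in the cytosol, imported into plastids and assembled in the thylakoid membrane with chlorophyll and with plastid-encoded core subunits. Roots hold mostly non-green plastids, and transcription of the nuclear genes there is known to be weak and to respond to light, cytokinin, auxin and the GLK transcription factors. Carbon fixation enzymes act in the stroma, where PRK makes the carbon dioxide acceptor, Rubisco (RBCS small subunits with a plastid-encoded large subunit) fixes the carbon, and GAPA and GAPB reduce the product.

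Every value below is a deposited normalized count unless called something else. Column totals ran from 38831704 to 44635953. Read as counts, the replicate columns of a group lay closer together than sampling noise allows: the chi-square per gene was 0.284 between the low_Pi columns (20137 genes) and 0.432 between the plus_Pi columns (20241 genes), against 222 between low_Pi replicate 1 and plus_Pi replicate 1 over 20279 genes with a mean of at least 10. Since the normalization is unknown, and values scaled down from larger counts would also give a figure under 1, this leaves the independence of the libraries undecided. As the cautious choice each group was counted as 1 sample, and no difference has a replicate check, a p-value or an SD. Log2 differences are low_Pi minus plus_Pi on the scale log2(value + 41.5), which understates differences of genes with low values, and a gene was called lower or higher at 2-fold. This size rule was read for 18729 genes whose mean reached 41.5, called tested below, among them 40 of the 42 members. The median log2 difference over the 18729 genes was -0.26, and median-of-ratios scaling moved it to -0.0005.

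The promoters of members that the results turn on are shown first, as 300-base windows from 250 bases before to 50 bases after the start of the gene in RefSeq annotation TAIR10.1, on the strand of the gene, counting the first base of the gene as 1 and the base before it as -1. Capitals mark matches, on either strand, to 4 short motifs: CACGTG (the G-box bound by HY5 and PIF factors), GATAAG (the I-box of light-regulated genes), CCAATC (a GLK-type element) and GNATATNC (P1BS, the element of the phosphate starvation regulator PHR1). No motif of these 4 contains another. PSBO1, on the plus strand of chromosome 5, encodes the photosystem II protein that stabilises the manganese cluster, and its window holds CACGTG just inside the annotated gene, at position 4.

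PSBO1: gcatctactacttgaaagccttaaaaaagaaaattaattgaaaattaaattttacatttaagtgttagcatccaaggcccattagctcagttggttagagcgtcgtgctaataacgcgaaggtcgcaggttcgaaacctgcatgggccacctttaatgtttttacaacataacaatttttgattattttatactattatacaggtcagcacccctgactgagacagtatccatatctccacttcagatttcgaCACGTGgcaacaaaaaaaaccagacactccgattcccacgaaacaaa

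The window of LHCB1.5, on the minus strand of chromosome 2, holds CCAATC at position -89 and is shown because LHCB1.5 had the largest difference of the antenna genes. The window of PSAF, on the minus strand of chromosome 1, holds GATAAG or its complement 3 times and CCAATC once. PRK, on the plus strand of chromosome 1, is shown as the 1 member called higher, and holds CACGTG at position -173.

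LHCB1.5: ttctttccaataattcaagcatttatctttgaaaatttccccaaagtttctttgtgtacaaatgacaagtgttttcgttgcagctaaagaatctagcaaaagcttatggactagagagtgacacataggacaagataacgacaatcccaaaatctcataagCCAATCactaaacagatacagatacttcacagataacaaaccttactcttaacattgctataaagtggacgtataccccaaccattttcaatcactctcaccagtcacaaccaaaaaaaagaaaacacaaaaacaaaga
PSAF: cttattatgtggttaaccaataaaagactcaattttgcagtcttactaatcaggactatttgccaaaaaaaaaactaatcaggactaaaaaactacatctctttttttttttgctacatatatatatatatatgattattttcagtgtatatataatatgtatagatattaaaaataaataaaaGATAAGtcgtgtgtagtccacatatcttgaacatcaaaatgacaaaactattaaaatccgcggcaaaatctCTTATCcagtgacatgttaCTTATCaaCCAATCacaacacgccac
PRK: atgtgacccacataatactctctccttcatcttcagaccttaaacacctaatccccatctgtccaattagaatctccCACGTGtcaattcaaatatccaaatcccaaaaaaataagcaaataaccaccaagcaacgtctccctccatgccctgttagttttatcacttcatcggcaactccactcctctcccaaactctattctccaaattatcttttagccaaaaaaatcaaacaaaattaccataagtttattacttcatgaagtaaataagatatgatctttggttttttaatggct

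The motif shares differed by role. CACGTG was found in 12 of the 42 member windows (28.6%) against 7.68% of the windows of 27443 nuclear protein-coding genes, and it was in 4 of 5 PSB windows. GATAAG was in 18 member windows (42.9%) against 14.6% of all windows, among them 7 of 10 PSA windows. CCAATC was in 15 member windows (35.7%) against 12.3%, among them 8 of 13 LHCB and 3 of 4 LHCA windows but 1 of 10 PSA windows. GNATATNC was in 1 member window (2.38%), that of PSBR, against 6.25% of all windows. These are matches of letters, and binding was not measured.

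In low_Pi roots the transcripts of most antenna, photosystem and carbon fixation genes were lower than in plus_Pi roots, by less than 2-fold for most. Of the 40 tested members, 7 were at least 2-fold lower (background: 4.47% of the 18729 genes), namely PSAN, CA1, PSBO2, GAPB, PSAF, PSAO and PSAK. PRK alone was at least 2-fold higher (background 4.58%), and the other 32 lay between. At 1.5-fold, 22 members were lower (background 20.7%) and 1 was higher (background 8.77%). Both low_Pi columns were under both plus_Pi columns in 38 members (background 62.5%) and above them in 1 (background 21.9%), and the columns of LHCB2.2 overlapped. The log2 difference was under 0 in 38 members (background 71.4%) and under the all-gene median in 35 (background 50%).

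The median log2 difference of the 40 members was -0.65, which is -0.40 relative to the median of all genes. Median-of-ratios scaling gave a member median of -0.41 and left 3 members at least 2-fold lower (PSAN, CA1 and PSBO2; background 2.29%) and 1 higher (PRK; background 6.59%), with 36 members under 0 (background 50%) and LHCB2.1, LHCB2.2, LHCB4.2 and PRK above 0. The 42 members summed to 18414 and 17155 in low_Pi and to 28002 and 30487 in plus_Pi, a log2 ratio of sums of -0.72. Per 1000000 of the column total, that is 438 and 442 against 690 and 683. In whole roots, fewer cells that express these genes and less RNA per cell cannot be told apart. Across the 40 members, the level and the log2 difference had a Spearman rho of -0.15, given as a description of genes that share the same libraries.

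**Figure D1:**
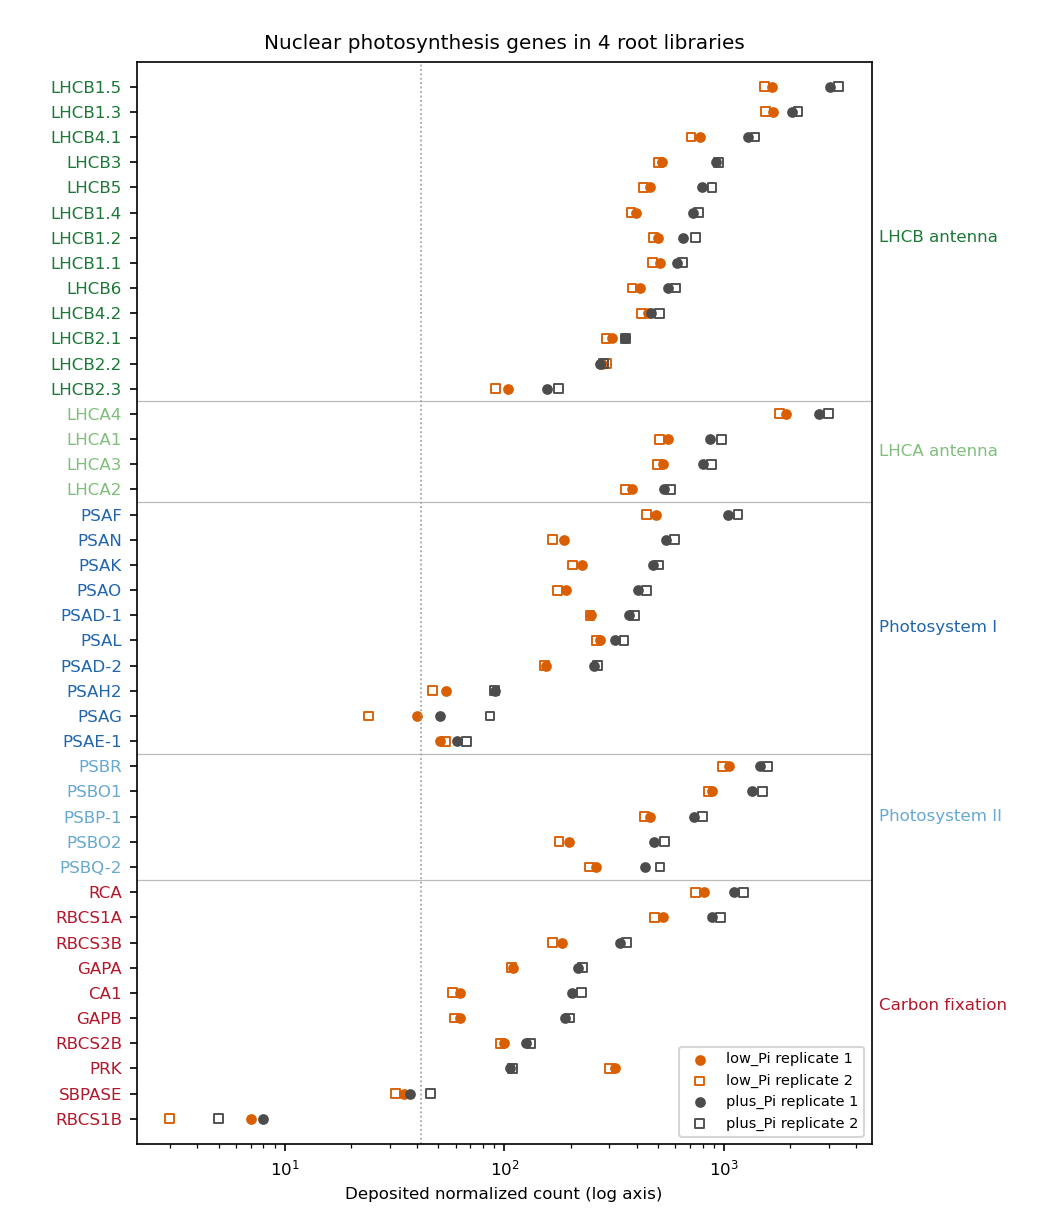
Deposited normalized counts (log axis) of the 42 members in the 4 libraries, grouped by role; filled circles are replicate 1, open squares replicate 2, orange low_Pi and grey plus_Pi, and the dotted line is the filter at 41.5. The orange points lie left of the grey points in 38 of the 40 tested members, and PRK lies the other way, with 319 and 301 in low_Pi against 106 and 109 in plus_Pi.

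Markers of shoot tissue, which expresses all of these genes strongly, were read beside them. Of 15 shoot markers, 13 had values of at most 16 in every column, among them the stomatal genes MUTE and EPF1 and the peptide gene EPFL9, which were at 0 in all 4 columns. The epidermal genes PDF1 and ATML1 made up nearly all of the shoot marker sum. PDF1 had 1118 and 1036 in low_Pi and 1685 and 1844 in plus_Pi, and ATML1 had 191 and 171 against 324 and 352, with log2 differences of -0.69 and -0.77. The marker sum per 1000000 was 32.2 and 32.2 in low_Pi and 50.8 and 50.4 in plus_Pi. Its log2 ratio of sums, -0.73, is mostly that of PDF1 and ATML1. The 13 low markers did not all go the same way. STM had 10 and 10 in low_Pi and 0 and 0 in plus_Pi, while GL1 had 0 and 0 against 4 and 4. The part of shoot tissue in the members' differences was not tested.

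All 12 root markers passed the filter, as did 18729 of all 27655 genes, so this is no check of the root label. PYK10, a beta-glucosidase of root ER bodies, had 498438 and 460496 in low_Pi and 500656 and 549062 in plus_Pi. The root hair gene COBL9 was higher in low_Pi, with 5022 and 4661 against 1428 and 1649 (log2 difference 1.63), and the root cap gene SMB was lower, with 179 and 171 against 394 and 442 (-1.08). SMB came under 2-fold with median-of-ratios scaling, at -0.84. PLT1 and PLT2, stem cell niche factors, gave log2 differences of -0.76 and -0.75. WOX5, of the quiescent centre, gave -0.86, and the auxin carrier gene PIN2 gave -0.80. The remaining root markers gave 0.56 for the endodermal CASP1, 0.45 for RHD6 and 0.04 for the aquaporin gene AT5G47450. They gave -0.13 for PYK10, -0.38 for SHR and -0.45 for SCR. The median of the 12 root markers was -0.41, and the part of root cell types in the members' differences was not tested.

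The antenna of photosystem II is built from LHCB proteins, of which LHCB1, LHCB2 and LHCB3 form the trimers of the main complex and LHCB4, LHCB5 and LHCB6 are the minor antenna. None of the 13 LHCB genes reached 2-fold, and their median log2 difference was -0.50. All but LHCB2.2 (AT2G05070) had both low_Pi columns under both plus_Pi columns (background 62.5%). Their sum had a log2 ratio of -0.66.

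Per kilobase of exon, LHCB1.5 (AT2G34420) had the highest level of all members in both groups, 1522 in low_Pi and 3031 in plus_Pi, followed by LHCA4 with 1432 and 2198. LHCB1.5 had 1654 and 1526 in low_Pi and 3033 and 3302 in plus_Pi, a log2 difference of -0.98. Its neighbour LHCB1.4 (AT2G34430) had 399 and 377 against 720 and 762, a difference of -0.87. The copies on chromosome 1 were less far apart. LHCB1.3 (AT1G29930) had 1674 and 1545 in low_Pi and 2038 and 2168 in plus_Pi (-0.38). LHCB1.1 (AT1G29920) had 511 and 470 against 608 and 647 (-0.33), and its neighbour LHCB1.2 (AT1G29910) had 500 and 475 against 647 and 743 (-0.47). All 5 LHCB1 genes were lower in both low_Pi columns than in either plus_Pi column (background 62.5%).

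Summed, the 3 copies of chromosome 1 gave 2685 and 2490 in low_Pi and 3293 and 3558 in plus_Pi, a log2 ratio of sums of -0.40. The pair on chromosome 2 gave 2053 and 1903 against 3753 and 4064, a log2 ratio of sums of -0.98. The share of LHCB1.5 in the LHCB1 sum was 34.9% and 34.7% in low_Pi and 43.0% and 43.3% in plus_Pi, so the chromosome 1 copies together made up the larger part in low_Pi and the smaller part in plus_Pi. Reads of such copies can be split or lost in counting: the coding sequences of LHCB1.1, LHCB1.2 and LHCB1.3 are 95.6% to 96.4% identical in pairs over paired bases, and LHCB1.4 and LHCB1.5 are 92.5% identical, so the values within each set are uncertain where reads are short. Of 100-base coding windows, LHCB1.1 and LHCB1.3 share 5.25%, LHCB1.1 and LHCB1.2 share 2.41%, and LHCB1.4 and LHCB1.5 share 5.70% to 5.72%. LHCB1.2 and LHCB1.3 share no such window, nor do LHCB1.3 and LHCB1.5. The 3 close copies differ at 47 of 804 coding positions. The 90 coding bases richest in differences, bases 1 to 90, are shown with the 9 differing positions in capitals.

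LHCB1.1: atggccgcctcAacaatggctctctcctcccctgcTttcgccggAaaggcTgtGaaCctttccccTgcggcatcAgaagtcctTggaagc
LHCB1.2: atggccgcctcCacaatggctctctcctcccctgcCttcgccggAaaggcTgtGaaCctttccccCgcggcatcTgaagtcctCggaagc
LHCB1.3: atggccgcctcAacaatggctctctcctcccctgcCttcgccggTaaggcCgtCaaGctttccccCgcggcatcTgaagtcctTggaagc

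In the annotation, 18 of the 42 members share bases with another gene, and the strand used in counting is not given in the sources used here. LHCB1.3 overlaps NRPA2, a subunit of RNA polymerase I, on the opposite strand by 108 bases, and NRPA2 had 1384 and 1271 in low_Pi and 2475 and 2712 in plus_Pi. LHCB1.5 overlaps RWA3 on the opposite strand by 99 bases, and RWA3 had 1823 and 1675 against 1635 and 1812. The exons of LHCB1.5 also lie within an annotated long non-coding RNA on the opposite strand, AT2G08665, which shares 1045 bases with it and is not analysed here.

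The LHCB2 genes ranged from -0.58 to 0.03. LHCB2.1 (AT2G05100) had 308 and 290 in low_Pi and 355 and 357 in plus_Pi (log2 difference -0.22, but 0.02 with median-of-ratios scaling), and LHCB2.2 had 278 and 292 against 273 and 282 (0.03, and 0.28 with that scaling). These copies are 92.9% identical over 798 paired coding bases and share 8.89% to 10.9% of their 100-base coding windows, so their separate values are uncertain. LHCB2.3 (AT3G27690) had 104 and 91 against 157 and 176 (-0.58), and it shares 595 bases with AT3G27700 on the opposite strand, whose mean was 1725. The LHCB2 sum had a log2 ratio of -0.23, against -0.68 for the LHCB1 sum.

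LHCB3 (AT5G54270) had 520 and 504 in low_Pi and 914 and 939 in plus_Pi, a log2 difference of -0.81. Of the minor antenna genes, LHCB4.1 (AT5G01530) had 773 and 707 against 1285 and 1381 (-0.81). LHCB5 (AT4G10340) had 461 and 430 against 791 and 880 (-0.85). These antenna genes lay together, at about the distance of LHCB1.4. LHCB6 (AT1G15820) had 414 and 381 against 556 and 603 (-0.50). LHCB4.2 (AT3G08940) was close in both groups, with 452 and 422 against 465 and 510 (-0.14, but 0.11 with median-of-ratios scaling). The third LHCB4 gene, LHCB4.3, is not one of the 42 and went the other way, with 124 and 114 in low_Pi and 65 and 71 in plus_Pi. LHCB4.1 made up 57.3% and 56.9% of the LHCB4 sum in low_Pi and 70.8% and 70.4% in plus_Pi, while LHCB4.3 made up 9.19% and 9.17% against 3.58% and 3.62%.

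The 4 LHCA genes, which form the antenna of photosystem I, lay close together, with log2 differences from -0.74 to -0.54 and a median of -0.64. None reached 2-fold. LHCA4 (AT3G47470) had 1922 and 1787 in low_Pi and 2713 and 2980 in plus_Pi (-0.61), and its level in plus_Pi was the second highest per kilobase among the members. LHCA1 (AT3G54890), which pairs with LHCA4 in the antenna, had 557 and 507 against 861 and 973 (-0.74). LHCA3 (AT1G61520) had 527 and 499 against 802 and 878 (-0.67), and its partner LHCA2 (AT3G61470) had 381 and 356 against 535 and 572 (-0.54). All 4 had both low_Pi columns under both plus_Pi columns (background 62.5%).

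**Figure D2:**
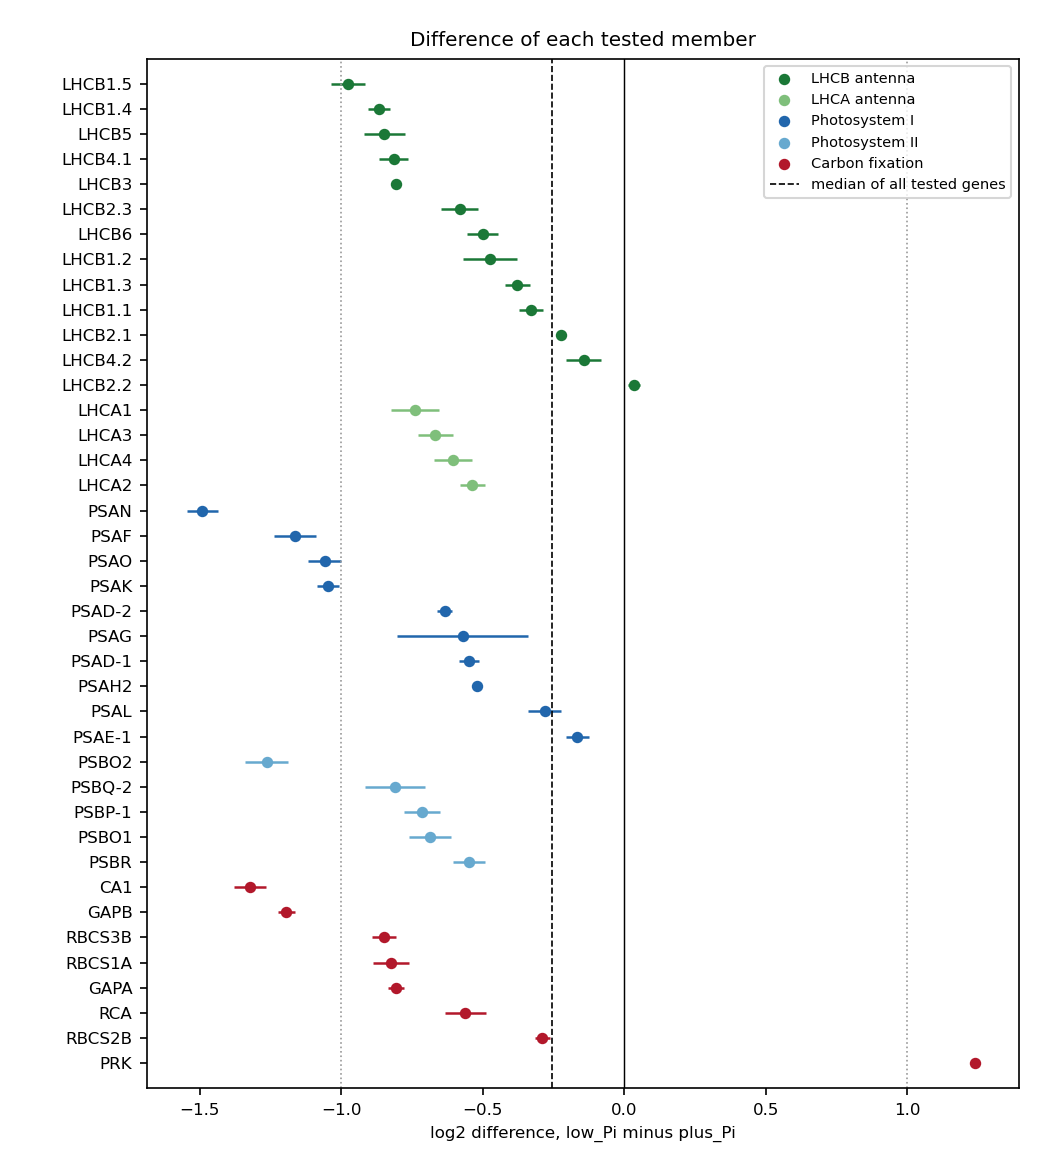
Log2 difference, low_Pi minus plus_Pi, of the 40 tested members by role; points use the mean of both columns of each group, bars run between the differences taken against each plus_Pi column alone, dotted lines mark 2-fold and the dashed line the median of all tested genes (-0.26). PSAN, CA1, PSBO2, GAPB, PSAF, PSAO and PSAK lie at or beyond the lower 2-fold line, and PRK alone lies beyond the upper one.

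Of the 10 photosystem I genes, 4 were at least 2-fold lower in low_Pi (PSAN, PSAF, PSAO and PSAK; background 4.47%), and the median of all 10 was -0.60. The sum of the 10 had a log2 ratio of -1.04, against -0.66 for the LHCB sum and -0.66 for the LHCA sum. PSAN and PSAF sit on the lumen side of photosystem I, where plastocyanin docks. PSAN (AT5G64040) had 187 and 165 in low_Pi and 546 and 593 in plus_Pi, a log2 difference of -1.49, the largest among the members on this scale, though CA1 was ahead of it with a pseudocount of 4.15 (-1.75 against -1.67) and with linear group means (-1.82 against -1.69). PSAF (AT1G31330) had 490 and 443 against 1038 and 1156 (-1.16), and -0.90 with median-of-ratios scaling. PSAN and PSAF each had both low_Pi columns under both plus_Pi columns (background 62.5%).

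PSAO and PSAK bind at the membrane edge, PSAO where the mobile antenna docks and PSAK beside the LHCA proteins. PSAO (AT1G08380) had 191 and 174 in low_Pi and 406 and 444 in plus_Pi (log2 difference -1.06), and PSAK (AT1G30380) had 225 and 204 against 473 and 501 (-1.05). These stood just past 2-fold, and both lost the call with median-of-ratios scaling, at -0.82 and -0.80, and in 1 omission of a library each (PSAO at -0.999 without plus_Pi replicate 2, PSAK at -0.99 without low_Pi replicate 2).

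The ferredoxin side of photosystem I is formed by PSAD and PSAE. PSAD-1 (AT4G02770) had 248 and 245 in low_Pi and 370 and 390 in plus_Pi (-0.55), and PSAD-2 (AT1G03130) had 154 and 152 against 255 and 266 (-0.63). The copies kept similar proportions, with PSAD-1 at 61.7% of the pair in both low_Pi columns and at 59.2% and 59.5% in plus_Pi. The PSAE copies did not: PSAE-1 (AT4G28750) had 51 and 54 against 61 and 67 (-0.17, but -0.003 with median-of-ratios scaling). PSAE-2, which is not one of the 42, had 61 and 53 against 185 and 210 (-1.28). PSAE-1 was near the filter, and it shares 436 bases with AT4G28755 on the opposite strand, which was at 0 in every column. PSAE-2 made up 54.5% and 49.5% of the pair in low_Pi and 75.2% and 75.8% in plus_Pi.

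PSAL and PSAH, near the docking site of the mobile antenna, gave -0.28 for PSAL (AT4G12800), with 273 and 262 against 319 and 350, and -0.52 for PSAH2 (AT1G52230), with 54 and 47 against 91 and 90. PSAH2 shares 174 bases with ROPGEF11 on the opposite strand, which had 354 and 332 in low_Pi and 216 and 235 in plus_Pi. PSAG (AT1G55670), a subunit at the antenna side, was near the filter, with 40 and 24 against 51 and 86, and the column spread there was wide.

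The 5 photosystem II genes encode extrinsic proteins around the water-splitting manganese cluster (PSBO, PSBP and PSBQ) and the small subunit PSBR. PSBO2 was the 1 called lower (background 4.47%), and the median of the 5 was -0.72. PSBO2 (AT3G50820) had 197 and 177 in low_Pi and 479 and 536 in plus_Pi (-1.26), and PSBO1 (AT5G66570), the main PSBO gene in these roots, had 883 and 844 against 1342 and 1491 (-0.69). PSBO2 thus made up 18.2% and 17.3% of the PSBO sum in low_Pi and 26.3% and 26.4% in plus_Pi, and the coding sequences of the pair are 83.8% identical over paired bases. PSBP-1 (AT1G06680) had 459 and 435 against 726 and 796 (-0.72), close to the median of the role. PSBQ-2 (AT4G05180) had 260 and 243 against 436 and 511 (-0.81). PSBR (AT1G79040) had 1053 and 983 against 1449 and 1569 (-0.55). All 5 had both low_Pi columns under both plus_Pi columns, as did 62.5% of all tested genes.

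The carbon fixation genes had the widest range of the 5 roles, from -1.32 for CA1 (AT3G01500) to 1.24 for PRK (AT1G32060), with a median of -0.82 over 8 tested genes. CA1 and GAPB were called lower (background 4.47%), PRK was called higher (background 4.58%), and RBCS1B and SBPASE were under the filter. CA1, a plastid carbonic anhydrase, had 63 and 58 in low_Pi and 204 and 224 in plus_Pi. It shares 343 bases with LSF1 on the same strand, and LSF1 had 225 and 209 against 245 and 269, so reads of the shared stretch could belong to either.

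GAPA and GAPB form the plastid glyceraldehyde-3-phosphate dehydrogenase. GAPB (AT1G42970) had 63 and 59 in low_Pi and 188 and 198 in plus_Pi (-1.19, but just under 2-fold at -0.996 with median-of-ratios scaling), and GAPA (AT3G26650) had 109 and 108 against 216 and 226 (-0.81). RCA (AT2G39730), the Rubisco activase, had 808 and 741 against 1104 and 1224 (-0.56). All 3 genes had both low_Pi columns under both plus_Pi columns (background 62.5%).

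Rubisco small subunits come from RBCS1A on chromosome 1 and from the cluster of RBCS1B, RBCS2B and RBCS3B on chromosome 5. RBCS1A (AT1G67090) had 528 and 480 in low_Pi and 883 and 966 in plus_Pi (-0.82). RBCS3B (AT5G38410) had 182 and 166 against 335 and 358 (-0.85), at about the same distance as RBCS1A. RBCS2B (AT5G38420) had 100 and 96 against 126 and 132 (-0.29). RBCS1B (AT5G38430) had 7 and 3 against 8 and 5, so no difference was read. The share of RBCS1A in the family sum was 64.6% and 64.4% in low_Pi and 65.3% and 66.1% in plus_Pi, and the whole sum, 817 and 745 against 1352 and 1461, had a log2 ratio of -0.85. The cluster genes are 96.7% to 97.3% identical to each other over their paired coding bases, and RBCS1A is 90.4% to 90.6% identical to them. RBCS1B and RBCS3B share 28.4% to 29.3% of their 100-base coding windows, so their separate values are uncertain, while RBCS2B shares none with either.

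PRK, phosphoribulokinase, was the exception among the 42, with 319 and 301 in low_Pi and 106 and 109 in plus_Pi (1.24, and 1.46 with median-of-ratios scaling). Its neighbour NSI on the opposite strand shares 33 bases and had 866 and 792 against 707 and 756 (0.17). SBPASE (AT3G55800), the phosphatase that acts before PRK in regeneration of the acceptor, had 35 and 32 against 37 and 46.

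Of 14 other Calvin cycle genes, all tested, 2 were higher (background 4.58%) and 1 lower (background 4.47%), with a median of -0.36. The 2 higher genes were HCEF1, a plastid fructose bisphosphatase, with 521 and 488 in low_Pi and 83 and 90 in plus_Pi (2.09), and CP12-2, with 191 and 180 against 23 and 25 (1.79). CP12 proteins hold PRK and glyceraldehyde-3-phosphate dehydrogenase in an inactive complex. CP12-1 was the 1 lower gene, with 602 and 546 against 1633 and 1793 (-1.51), so CP12-2 made up 24.1% and 24.8% of the CP12 sum in low_Pi and 1.39% and 1.38% in plus_Pi.

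**Figure D3:**
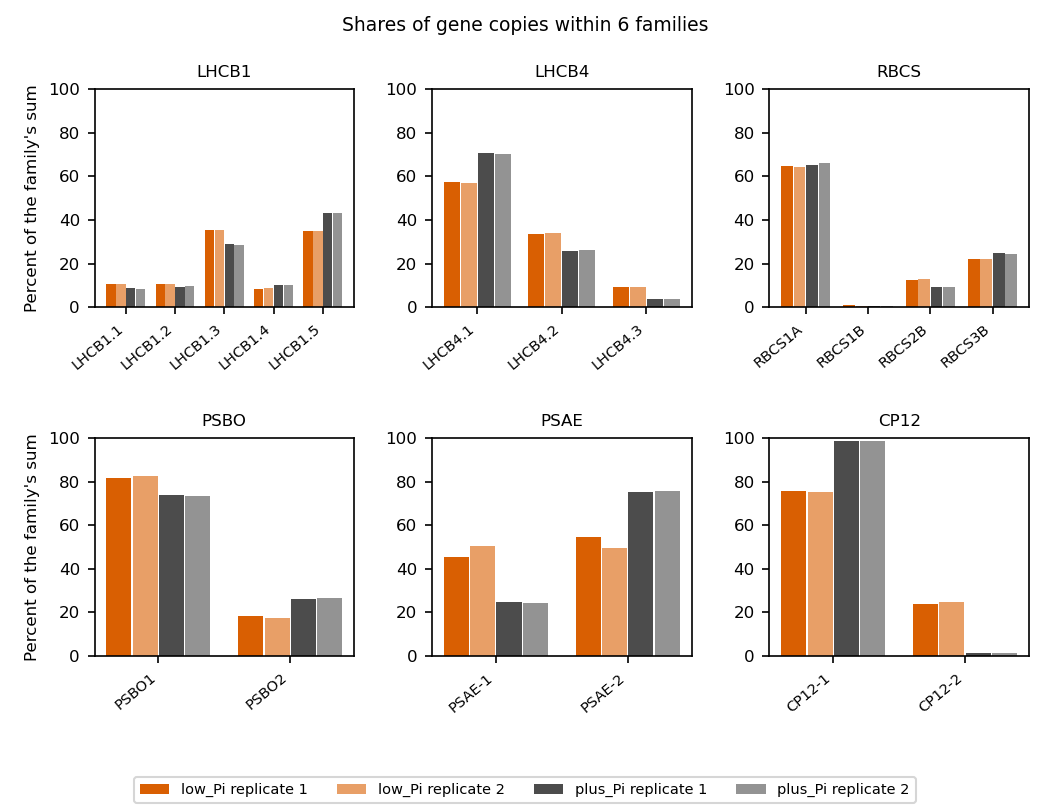
Share of each copy in the sum of its family's deposited values (percent, bars from 0) in each of the 4 libraries, for LHCB1, LHCB4, RBCS, PSBO, PSAE and CP12. The RBCS1A share stays between 64.4% and 66.1%, while LHCB1.5 is at 34.7% to 34.9% in low_Pi and 43.0% to 43.3% in plus_Pi, and CP12-2 is at 24.1% and 24.8% in low_Pi and 1.39% and 1.38% in plus_Pi.

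Other genes of the photosynthetic apparatus were read from lists of their own. Of 15 other antenna and photosystem genes, 12 were tested, 1 was lower (PSAE-2; background 4.47%) and none higher, with a median of -0.54. Of 11 thylakoid electron transport genes, 1 was lower (background 4.47%) and none higher, with a median of -0.65. The lower gene was ATPC1, the gamma subunit of the plastid ATP synthase. ATPC1 had 267 and 248 in low_Pi and 1149 and 1229 in plus_Pi (-2.04). The 3 genes of the root-type electron chain, which feeds nitrite and sulfite reduction in non-green plastids, were not called in either direction. Of these, FD3 (root ferredoxin) had 6936 and 6415 against 10052 and 11079 (-0.66), and RFNR2 (root ferredoxin reductase) had 9714 and 8958 against 10543 and 11642 (-0.25, but 0.03 with median-of-ratios scaling). Per kilobase of exon in low_Pi, FD3 was at 6743 and the leaf-type FD2 at 699.

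Chlorophyll synthesis supplies the pigment that antenna proteins bind. Of 22 genes, 19 were tested, 2 were lower (background 4.47%) and none higher, with a median of -0.40. CHLM, the magnesium protoporphyrin methyltransferase, had 489 and 436 in low_Pi and 1210 and 1338 in plus_Pi (-1.38), and CHLD, a magnesium chelatase subunit, had 866 and 792 against 1707 and 1877 (-1.07). The light-dependent protochlorophyllide reductases were low, with PORA at 9 and 6 against 9 and 9 and PORB at 116 and 101 against 159 and 175 (-0.48). PORC had 57 and 53 against 141 and 152 (-0.96). HEMA1, the gene with the highest mean of the list, went the other way, with 4115 and 3770 against 2593 and 2921 (0.51). CHLD dropped under 2-fold with median-of-ratios scaling, at -0.81.

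Photorespiration, which recycles the product of the Rubisco oxygenase reaction, held the largest differences of the lists read here. Of 9 genes, 8 were tested and 3 were lower (background 4.47%), with a median of -0.51. AGT, a peroxisomal aminotransferase, had 331 and 282 in low_Pi and 4910 and 5305 in plus_Pi (-3.89). AT1G80380, a P-loop nucleotide hydrolase in RefSeq, had 1146 and 1008 against 12502 and 13579 (-3.55), and GOX2, a glycolate oxidase, had 375 and 359 against 1352 and 1416 (-1.80). The other 5 tested genes of the list were not called. PGLP1 is listed at 0 in all columns, as is AT5G36790, whose annotated coding sequence is 100% identical to it.

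Regulators of greening and light signalling were mixed. Of 16 genes, 11 were tested, 1 was lower (background 4.47%) and 1 higher (background 4.58%), with a median of -0.22. GLK1, an activator of antenna genes, was under the filter, with 11 and 7 in low_Pi and 21 and 21 in plus_Pi, and GLK2 had 457 and 435 against 369 and 404 (0.19). HY5, the light signalling factor that binds the G-box, overlapped between groups, with 594 and 538 against 540 and 615 (-0.03, but 0.23 with median-of-ratios scaling). PIF3 was higher in low_Pi, with 408 and 361 against 114 and 157 (1.28), and PIF1 was lower, with 133 and 119 against 294 and 334 (-1.08, but under 2-fold at -0.86 with median-of-ratios scaling, which left no regulator called lower). PIF1 and PIF3 are repressors of greening in the dark.

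Of 6 plastid sigma factors, which direct the plastid-encoded RNA polymerase, 5 were tested and none was called, with a median of -0.40. SIG5 had 248 and 220 in low_Pi and 297 and 349 in plus_Pi (-0.40), and SIG2 had 369 and 340 against 533 and 582 (-0.60). SIG1 had 904 and 828 against 922 and 1009 (-0.15, but 0.12 with median-of-ratios scaling). Of 13 plastid-encoded partner genes, 7 were tested, 1 was lower (background 4.47%) and none higher, with a median of -0.54. Oligo(dT) selection is known to capture plastid transcripts poorly. ATCG00270 had 304 and 275 against 631 and 694 (-1.09, but under 2-fold at -0.84 with median-of-ratios scaling). The 13 genes summed to 125 and 125 per 1000000 in low_Pi and 191 and 187 in plus_Pi. Most of that sum was 1 gene, ATCG00480. It had 4406 and 4084 of the deposited sums of 5258 and 4851 in low_Pi. In plus_Pi it had 6214 and 6702 of 7762 and 8347.

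**Figure D4:**
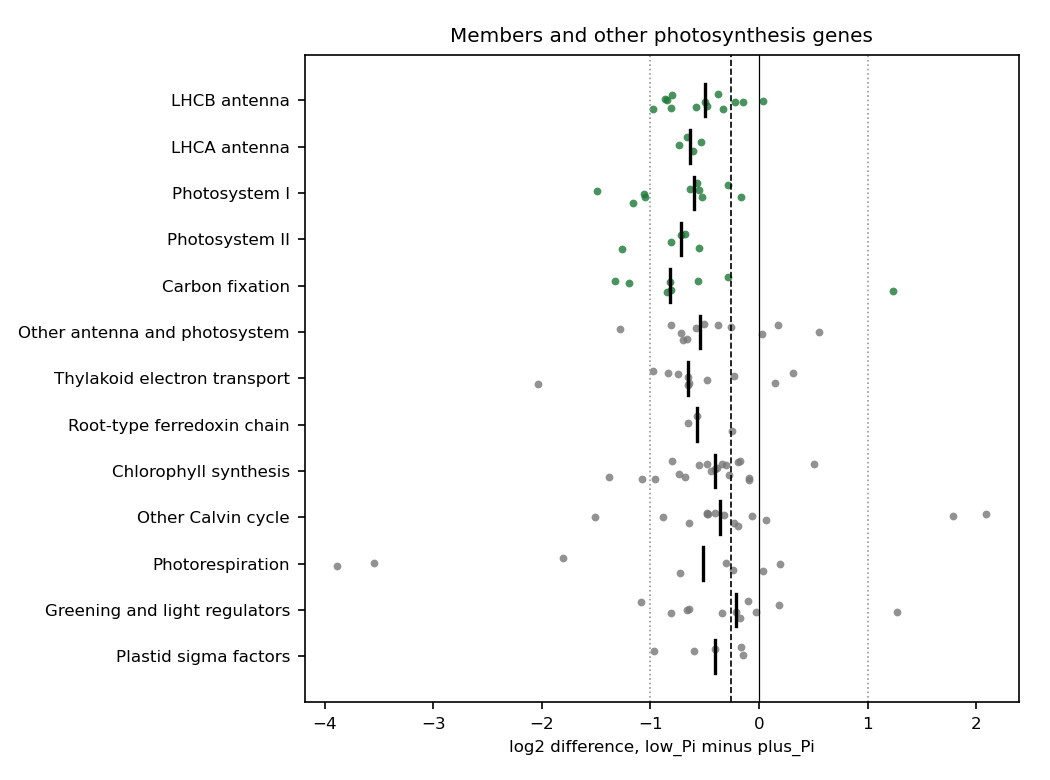
Log2 difference, low_Pi minus plus_Pi, of the tested genes of each role (green, members) and of the other lists (grey); each point is 1 gene, the short black bar is the list's median, the dashed line the median of all tested genes (-0.26) and dotted lines 2-fold. The 5 role medians lie between -0.82 and -0.50, and the median of the greening and light regulators is -0.22.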

How the data were processed

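RNA sequencing values of 4 Arabidopsis root libraries were used. Per the labels' protocols, DNase I treated RNA was selected for poly(A) on oligo(dT) beads and sequenced on an Illumina instrument. The submitters' processing notes name CASAVA 1.4, FastQC, HISAT2, HTSeq and edgeR without their roles. Which build, annotation, strand setting and normalization were used is not given in the sources used here. Coordinates are therefore left out. The authors deposited a single table of whole numbers called normalized counts, which was treated as a score, and no count model was fitted; read depth is unknown, and no counting interval is given. Column names gave the samples, except that the second low_Pi column was given its group alone, since its name stripped of punctuation also spells a plus_Pi title.

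Values were used as deposited, with a pseudocount and a filter on the mean of 41.5 each, which is 1 part in 1000000 of the mean column total. The calculation was tested on simulated data. Identifiers matched RefSeq TAIR10.1 for 27445 of 27655 genes, the other 210 being organellar. Sequences, exon lengths and overlaps come from that annotation, and 1 promoter window is not reported here. The members and lists were chosen with earlier results of these data known. Values in every column were planned for members called at 2-fold, the highest and the 2 most different members of each role, near-identical copies, up to 3 called genes of each other list (or its 2 highest) and PORA, PORB, GLK1, GLK2, HY5 and SIG5. Any other gene given with values was chosen after they were seen. Alternatives covered the pseudocount, filter, scaling, averaging, fold size, summed copies and omitted libraries. The omission of members that overlap another gene was added after seeing the data. Python 3.11.15, pandas 2.3.3, numpy 2.4.6 and Biopython 1.88 were used.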

Additional observations from a re-analysis of the deposited data

How the results depend on the processing

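The 2-fold counts depended on the settings. The count of lower members, 7 as reported (background 4.47%), was 3 with median-of-ratios scaling (background 2.29%) and 22 at 1.5-fold (background 20.7%). It was 1 with a pseudocount of 208, 4 after trimmed-mean scaling and 4 after quantile normalization. The background was not read for these settings. The count of higher members, 1 as reported (background 4.58%), was 0 with a pseudocount of 208, where the background was not read. That count was also 0 without the members that overlap another gene, since PRK is one of them. The member median, -0.65 as reported, was -0.76 with a pseudocount of 4.15, -0.51 with a pseudocount of 208, -0.41 with median-of-ratios scaling, -0.42 after trimmed-mean scaling, -0.45 after quantile normalization, -0.77 with linear means and -0.78 without overlapping members. The log2 ratio of summed values, -0.72 as reported, was -0.44, -0.45 and -0.51 with median-of-ratios, trimmed-mean and quantile scaling. The count of tested members with both low_Pi columns lower, 38 as reported (background 62.5%), was 21 without overlapping members, a smaller set by construction. The 24 members left include RBCS1B and SBPASE, which were under the filter and not counted. The median log2 difference of all tested genes, -0.26 as reported, moved with the scaling as well. It was -0.0005 with median-of-ratios scaling, -0.012 after trimmed-mean scaling and -0.080 after quantile normalization. Under these scalings the member median thus moved about as far as the median of all tested genes. The cause of the other shifts was not tested.

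Leaving out each library in turn gave 6 to 8 lower members and 1 higher member, and the background was not read there. The member median ran from -0.75 to -0.61 and the log2 ratio of sums from -0.78 to -0.65. The median of all tested genes ran from -0.32 to -0.19 in these omissions. The count of members with lower columns stayed at 38, but leaving out a column cannot lower that count. Since replicate columns lay closer together than sampling noise allows, these omissions are a weak check. Of 23 named genes called at 2-fold, 14 came under 2-fold in at least 1 of 11 settings. The count of sign changes, 0 in 253 values, is no check of direction. Genes chosen for a 2-fold difference could hardly change sign under these settings. No paired analysis was possible because each group was counted as 1 sample and the results come from no test. Read depth is unknown, so differences of low genes such as RBCS1B, SBPASE and GLK1 could not be resolved here.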
